A study of Mus musculus with 4 samples.

Results

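Glycolysis and the pentose phosphate pathway are represented here by 33 genes, which encode a glucose transporter, the enzymes from hexokinase to lactate dehydrogenase with their isoenzymes, a lactate transporter, 2 phosphoglucomutases, the enzymes of the pentose phosphate pathway and 3 subunits of the pyruvate dehydrogenase complex. The rule that finds their probes uses gene names and no measured value. All array probes named for them were collected, by old or current symbol and by RefSeq accession where the array gave one. This gave 52 probes, and each gene was represented by its brightest probe. Of the 33 genes, 31 passed the filter on dim probes and were tested among 15961 tested genes of the array. Hk3, the hexokinase of myeloid cells, and lactate dehydrogenase B (Ldhb) were not well above background on any of the 4 arrays and were not tested.

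The cells were mouse splenic B cells, purified with magnetic beads and kept in culture to day 3 of activation. The stimulus was anti-IgM against the antigen receptor together with anti-CD40 in place of help from T cells, at 10 µg/mL each. Donors were Ackr4-deficient males (Ackr4ko), which lack a scavenging receptor for chemokines, and C57BL/6 males (WT). Both genotypes received the same culture and the same activation, and no unactivated cells were compared. There were 2 independent experiments with different donors, and each held 1 Ackr4ko and 1 WT array, from mice of 73 and 71 days for Ackr4ko and 77 and 74 days for WT. The labels do not say how many mice each array stands for, nor how the deficiency was made.

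Glycolysis splits glucose into pyruvate in the cytosol, and several of its steps can be carried out by isoenzymes from separate genes that differ in regulation and tissue. The pentose phosphate pathway branches off at glucose 6-phosphate: its oxidative arm makes NADPH and ribulose 5-phosphate, and its non-oxidative arm exchanges sugars back into glycolysis. The pyruvate dehydrogenase complex passes pyruvate into the mitochondrial citric acid cycle. Activated B cells are known to raise glucose uptake as they grow and divide, and many glycolytic genes are known targets of hypoxia-inducible factor (HIF) and of Myc.

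The genotype of each array was taken from the label of its scanner file, and the order of the genotypes is not settled. In the authors' value table, 4 of the 4 columns came closest to the scanner file of the opposite genotype within their experiment, and 0 to their own. The names Ackr4ko and WT below stand for arrays so labelled in the scanner files, and all directions would be inverted under the labels of the value table. Ackr4 itself does not decide it, since both of its probes were not well above background on any array. Signal strength, as the 75th percentile, ranged from 740 to 1277 over the arrays. Outlier flags covered 6.24% of the spots on the WT array of experiment 2, and 1.79% to 2.12% on the others. That WT array also had the fewest probes well above background, 42.2% against 49.5% to 54.9% on the others. B cell markers were well above background on all 4 arrays for 8 of 8 genes, and their summed signal was 18.87 and 18.62 on the Ackr4ko arrays and 19.06 and 18.94 on the WT arrays (log2).

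Signals are given as log2 of the processed signal after scaling each array to a common 75th percentile, and differences as Ackr4ko minus WT on that scale, with the standard error (SE) of the limma fit over all tested genes and 2 arrays a group. A signal is compared only between arrays of the same probe, never between genes, because probes differ in brightness per transcript. With 2 arrays against 2 an exact two-sided permutation test of a single gene cannot give a p below 0.333.

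Of the 31 tested members, 0 passed the limma test without a block at an adjusted p under 0.05, where 0.0125% of all tested genes did (2 genes). At an unadjusted p under 0.05 there were 5 members, against 732 of all tested genes. By limma, Eno2, Hk2 and Pfkp had the smallest adjusted p, given with their values below, and the other tested members had an adjusted p of 1.00. Counts by direction were 19 members higher in Ackr4ko in both experiments, a pattern that 33.0% of all tested genes showed, and 2 members lower in both (Eno3 and Pgd), which 20.9% of all tested genes were. For 16 members both Ackr4ko arrays lay above both WT arrays (19.0% of all tested genes), and for 1 member, Eno3, both lay below (10.0% of all tested genes). The median difference of the 31 members was 0.39, against 0.08 over all tested genes. It was 0.56 in experiment 1 and 0.32 in experiment 2, where all tested genes had medians of -0.04 and 0.23. The difference was larger in experiment 1 than in experiment 2 for 16 members, against 33.5% of all tested genes. In such cultures fewer cells of a type and less RNA per cell cannot be told apart.

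**Figure D1:**
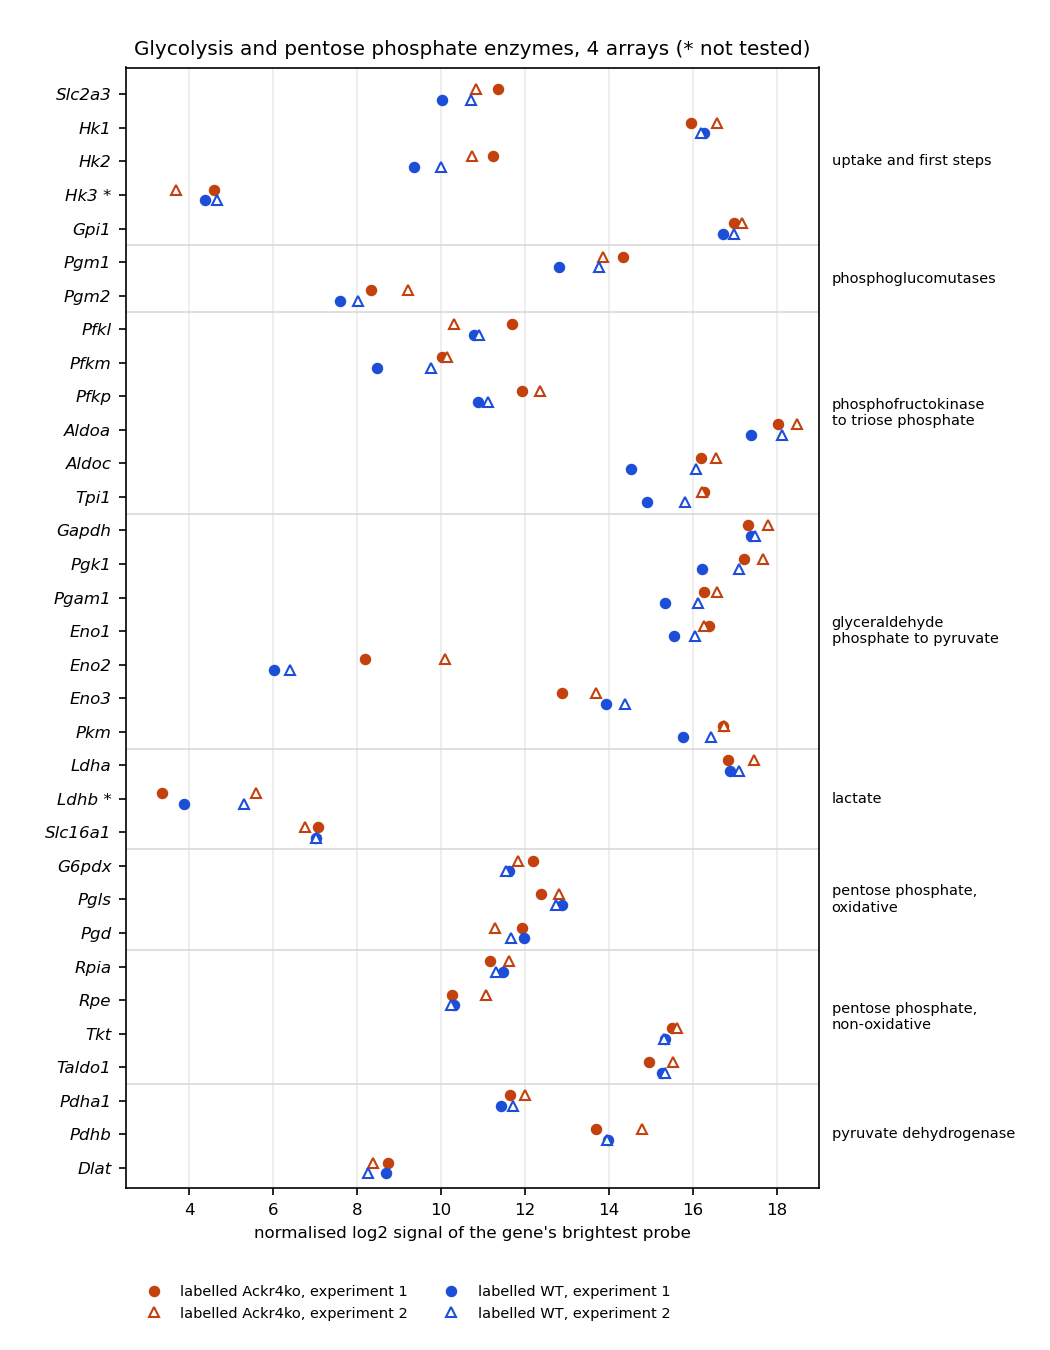
Normalised log2 signal of the brightest probe of each of the 33 genes (x axis), with genes down the page in pathway order. Orange marks are arrays labelled Ackr4ko and blue marks arrays labelled WT, circles experiment 1 and open triangles experiment 2; an asterisk marks the 2 genes that were not tested. Eno2 shows the widest gap with Ackr4ko higher, and Eno3 is the 1 gene with both Ackr4ko arrays below both WT arrays.

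The members of glycolysis, with the phosphoglucomutases and the lactate genes, held the largest differences (21 tested of 23). Their median was 0.69, with 15 higher in both experiments and 1 lower, and it was 0.92 in experiment 1 and 0.36 in experiment 2. The 7 pentose phosphate genes had a median of -0.003, with 2 higher and 1 lower in both experiments and with opposite signs in the others. The 3 pyruvate dehydrogenase genes had a median of 0.26. The difference between these classes was not tested.

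In experiment 1 the glycolytic differences stood out from genes of the same brightness, and in experiment 2 they mostly did not. Tested genes were put into classes of 1 log2 unit of mean signal, a step chosen after the values were seen. The glycolytic members lay above the median of their class for 19 of 21 in experiment 1, with a median excess of 1.07, and for 12 of 21 in experiment 2, with a median excess of 0.01. Genes of the brightest classes, with a mean signal above 16, had a median of -0.22 in experiment 1 and 0.36 in experiment 2 over 799 genes, and 9 of the members are among them. Of these 9, 6 were higher in both experiments, against 120 of the 799 genes. Among the glycolytic members, Hk2, Pfkp, Pgm2 and Eno2 had an excess above 0.6 over their class in experiment 2 too. After quantile normalization, which forces the same distribution on every array, 13 members were higher in both experiments, against 29.7% of all tested genes. In that setting 4 members were lower in both, against 28.0% of all tested genes. The median over the members was then 0.60 in experiment 1 and 0.01 in experiment 2.

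**Figure D2:**
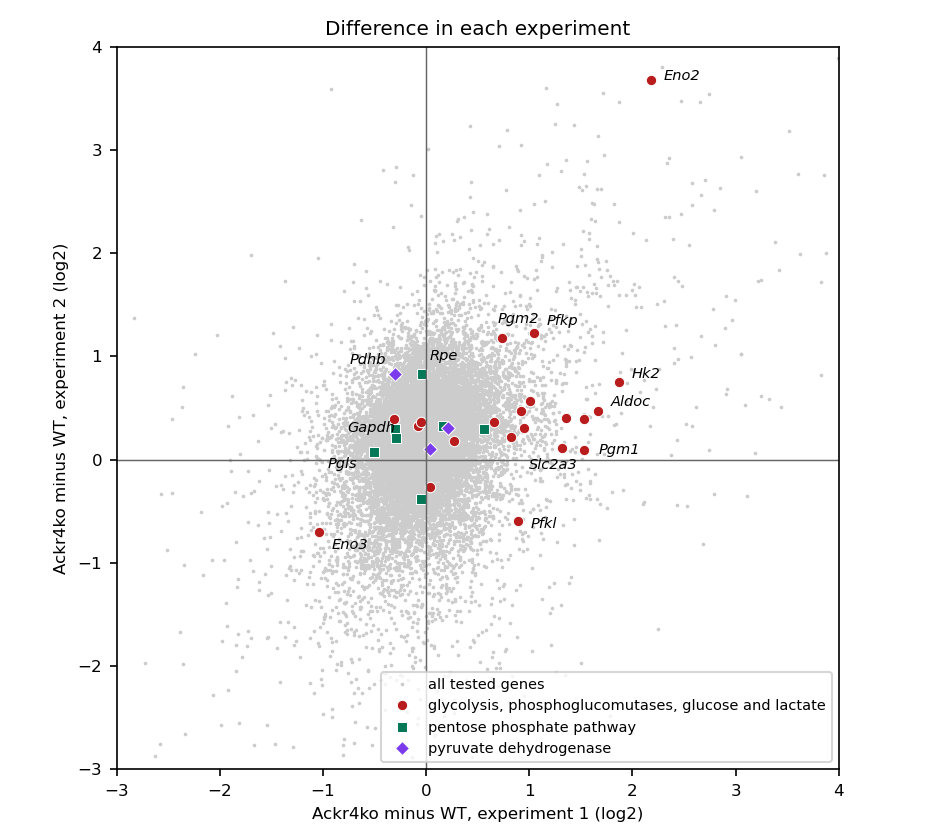
Difference Ackr4ko minus WT in experiment 1 (x axis) and experiment 2 (y axis), both log2, for all tested genes (grey) and for the tested members, coloured by pathway. Most glycolytic members lie to the right of 0 on the x axis and close to the grey cloud on the y axis, while Eno2, Pfkp and Pgm2 are above 1 on the y axis in experiment 2. The axes leave out 31 tested genes.

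A single array stood out in this pattern. The WT array of experiment 1 was the lowest of the 4 for 15 of the 21 glycolytic members (71.4%), where it was the lowest for 23.7% of all tested genes. Relative to each gene's own mean over the 4 arrays, the glycolytic members had a median of 0.29 and 0.38 on the Ackr4ko arrays of experiments 1 and 2, and of -0.69 and 0.02 on the WT arrays. Pentose phosphate genes had -0.21 and 0.18 on the Ackr4ko arrays and -0.01 and -0.08 on the WT arrays. Leaving out the WT array of experiment 1 brought the median difference of the 31 members to 0.28. It cut the difference by more than 1.5 times for 15 of the 25 members that were higher in Ackr4ko. Without the Ackr4ko array of experiment 2 the median was 0.29, and the difference was cut that much for 9 of the 25. That Ackr4ko array was the highest of the 4 for 13 of the 21 glycolytic members (61.9%), against 45.3% of all tested genes. Donor, culture and array cannot be told apart for the WT array of experiment 1, since it is the only WT array of its experiment.

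**Figure D3:**
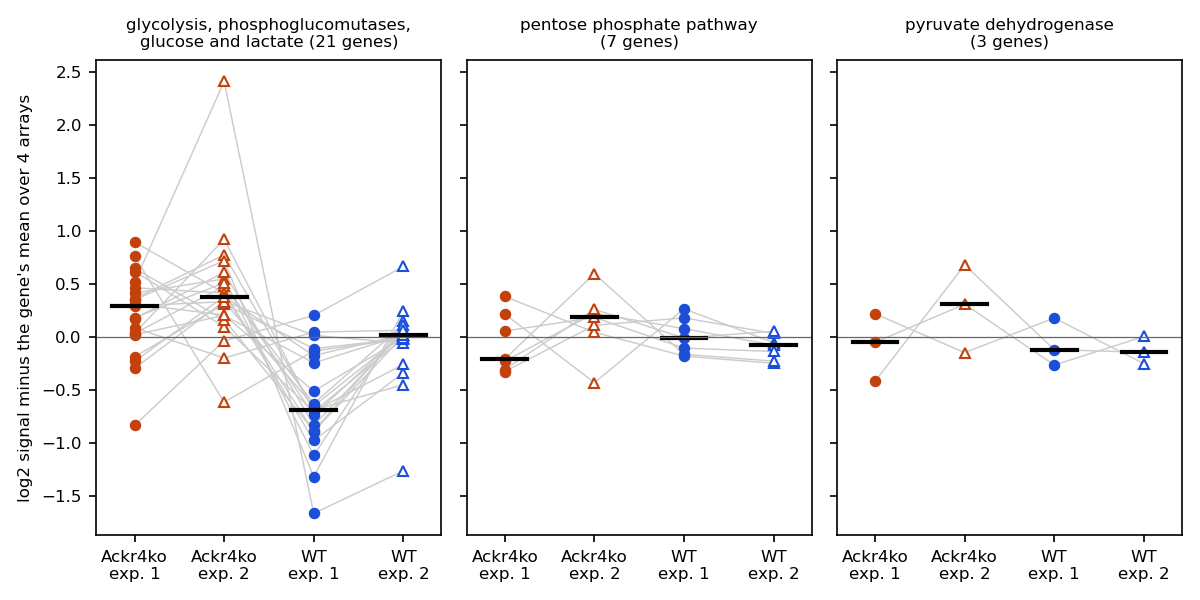
Log2 signal of each tested member minus its mean over the 4 arrays (y axis), for the 4 arrays (x axis), in 3 classes of genes. Points are genes, grey lines join the values of 1 gene, and black bars are medians. In the glycolytic panel the WT array of experiment 1 has a median of -0.69 and the other 3 arrays lie between 0.02 and 0.38, while the medians of the pentose phosphate genes lie between -0.21 and 0.18. In the panel of the 3 pyruvate dehydrogenase genes the Ackr4ko array of experiment 2 is highest, with a median of 0.31 against -0.14 to -0.05 on the others.

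Glucose enters lymphocytes through facilitative transporters. Slc2a3, which encodes the high-affinity transporter GLUT3, had signals of 11.36 and 10.83 on the Ackr4ko arrays of experiments 1 and 2, against 10.03 and 10.72 on the WT arrays. Groups did not overlap, but the difference of 0.72 ± 0.38 (SE) came from 1.32 in experiment 1 and 0.11 in experiment 2. Without the WT array of experiment 1 it was 0.37.

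Hexokinases phosphorylate glucose and trap it in the cell. Hk2, the inducible hexokinase of muscle, tumours and activated lymphocytes, had 11.23 and 10.75 on the Ackr4ko arrays and 9.35 and 9.99 on the WT arrays. The Ackr4ko arrays were both higher, by 1.87 in experiment 1 and 0.75 in experiment 2, and the difference of 1.31 ± 0.37 corresponds to 2.49-fold (limma adjusted p = 0.605). Hk1, the widely expressed hexokinase, had 15.94 and 16.57 on the Ackr4ko arrays and 16.25 and 16.18 on the WT arrays by its brightest probe. Here the groups overlapped and the sign turned between experiments (-0.31 and 0.39). Hk3 stayed at 4.59 and 3.68 on the Ackr4ko arrays and 4.39 and 4.67 on the WT arrays, none of them well above background.

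Glucose-6-phosphate isomerase (Gpi1), which turns glucose 6-phosphate into fructose 6-phosphate, had 16.98 and 17.16 on the Ackr4ko arrays and 16.71 and 16.97 on the WT arrays. The groups were separate by little, and the difference of 0.23 ± 0.33 was smaller than its SE. Its 3 probes share runs of 40 to 47 bases and gave 0.21 to 0.23, so they repeat 1 measurement.

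Phosphoglucomutases join glycolysis to glycogen by moving the phosphate of glucose. The array's names for these 2 genes are exchanged relative to current use, and the symbols here follow the RefSeq accessions. Pgm1 had 14.34 and 13.85 on the Ackr4ko arrays and 12.80 and 13.76 on the WT arrays, a difference of 0.81 ± 0.41 that was 1.53 in experiment 1 and 0.09 in experiment 2. Pgm2, which acts mainly on ribose and deoxyribose phosphates in humans, had 8.32 and 9.21 on the Ackr4ko arrays, against 7.59 and 8.03 on the WT arrays. It was higher by 0.73 in experiment 1 and 1.18 in experiment 2, a difference of 0.96 ± 0.40.

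Phosphofructokinase commits fructose 6-phosphate to glycolysis and is built from liver (Pfkl), muscle (Pfkm) and platelet (Pfkp) subunits. Pfkp had 11.94 and 12.35 on the Ackr4ko arrays and 10.89 and 11.13 on the WT arrays by its brightest probe. It was higher by similar amounts in both experiments, 1.05 and 1.23, giving 1.14 ± 0.34 or 2.20-fold (limma adjusted p = 0.645). Pfkm, with 10.02 and 10.15 on the Ackr4ko arrays against 8.49 and 9.75 on the WT arrays, was higher by 1.53 in experiment 1 and 0.40 in experiment 2. Pfkl went in opposite directions, with 11.69 and 10.31 on the Ackr4ko arrays and 10.80 and 10.91 on the WT arrays. Its Ackr4ko arrays were the highest and the lowest of the 4, so the mean difference of 0.15 ± 0.46 describes neither experiment (0.89 and -0.60).

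Aldolases cleave fructose 1,6-bisphosphate into 2 triose phosphates. The ubiquitous aldolase A (Aldoa) had 18.03 and 18.48 on the Ackr4ko arrays and 17.37 and 18.12 on the WT arrays, a difference of 0.51 ± 0.38 with groups that overlapped. Aldoc, the brain-type aldolase, had 16.19 and 16.56 on the Ackr4ko arrays, against 14.52 and 16.08 on the WT arrays. Its difference of 1.07 ± 0.50 was 0.29 without the WT array of experiment 1. Triosephosphate isomerase (Tpi1) interconverts the triose phosphates and had 16.27 and 16.22 on the Ackr4ko arrays and 14.91 and 15.82 on the WT arrays. The 2 Ackr4ko arrays differed by far less than the 2 WT arrays, and the difference was 0.88 ± 0.39, or 0.43 without the WT array of experiment 1.

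The later steps of glycolysis yield ATP and pyruvate. Phosphoglycerate kinase (Pgk1), the first enzyme of the pathway to make ATP, had 17.22 and 17.66 on the Ackr4ko arrays and 16.22 and 17.10 on the WT arrays, a difference of 0.79 ± 0.40. Phosphoglycerate mutase (Pgam1) had 16.25 and 16.58 on the Ackr4ko arrays and 15.33 and 16.11 on the WT arrays, a difference of 0.69 ± 0.38. Pyruvate kinase M (Pkm), which makes pyruvate, had 16.71 and 16.75 on the Ackr4ko arrays and 15.76 and 16.44 on the WT arrays, a difference of 0.63 ± 0.36. In these 3 genes the groups did not overlap and the WT array of experiment 1 was the lowest. Without it the differences were 0.35 for Pgk1, 0.30 for Pgam1 and 0.29 for Pkm. The M1 and M2 forms of pyruvate kinase were not told apart.

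Enolase converts 2-phosphoglycerate to phosphoenolpyruvate, and the differences of its 3 genes were 2.93, 0.52 and -0.87 for Eno2, Eno1 and Eno3. The longest run of letters shared between any pair of their probes was 7 bases. The probes were compared with each other and not with the transcripts, so cross-reading was not tested. Each probe has 60 bases. Stretches of 30 bases around the polyadenylation hexamer (capitals), from the deposited probe sequences and written 5′ to 3′ on the strand of the transcript, are shown because the differences of Eno2 and Eno3 had opposite signs.
Eno2: aatgaccaccaccATTAAAgtctgaatcac
Eno1: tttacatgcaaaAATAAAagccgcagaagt
Eno3: ccttctcccagaAATAAAcactgccaaacc

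Eno2, the enolase of neurons (gamma), is located on chromosome 6 by the array's mm9 annotation, with its probe at chr6:124710388-124710447 on the minus strand. It had 8.19 and 10.09 on the Ackr4ko arrays and 6.01 and 6.42 on the WT arrays. Both Ackr4ko arrays were well above background, as was 1 of the 2 WT arrays, so background limits the WT signal and the size of the difference is uncertain. The difference of 2.93 ± 0.57 was the largest among the members, was 2.18 in experiment 1 and 3.68 in experiment 2, and corresponds to 7.62-fold (limma adjusted p = 0.237). It did not pass the test without a block, and on leaving out each array in turn the limma adjusted p was 0.00764 without the WT array of experiment 2 and 0.0740 to 0.772 without one of the others. The fit without that WT array called 122 genes over the array, against 2 with all arrays.

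Eno1, the ubiquitous enolase (alpha), had 16.38 and 16.27 on the Ackr4ko arrays and 15.55 and 16.06 on the WT arrays, with its probe at chr4:149622928-149622987 on the plus strand. The difference was 0.52 ± 0.34, with 0.82 in experiment 1 and 0.22 in experiment 2. Eno3, the enolase of muscle (beta), had 12.89 and 13.68 on the Ackr4ko arrays, against 13.92 and 14.39 on the WT arrays, with its probe at chr11:70475953-70476012 on the plus strand. It was lower by 1.04 in experiment 1 and by 0.70 in experiment 2, a difference of -0.87 ± 0.39. It was the 1 member of the 31 whose Ackr4ko arrays both lay below both WT arrays.

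By the brightest probe, only Eno2 and Pfkp were at least 2-fold higher in both experiments, a pattern of 1.28% of all tested genes. The other, dim probe of Pfkp gave 0.40 in experiment 1 and 0.33 in experiment 2. With the experiment as a block, limma called Eno2 (adjusted p = 2.7e-14), Hk2 (adjusted p = 0.00746) and Pfkp (adjusted p = 0.0344), against 2.04% of all tested genes called higher, and the next, Aldoc, had an adjusted p of 0.0577. That fit has 1 residual degree of freedom per gene and gives all genes the same SE of 0.35, so its p-values follow the size of the difference alone. The experiment number pairs the arrays because the series description states 2 experiments.

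Glyceraldehyde-3-phosphate dehydrogenase (Gapdh), which makes NADH and is widely used as a reference gene, had 17.30 and 17.80 on the Ackr4ko arrays and 17.38 and 17.47 on the WT arrays by its brightest probe. The groups overlapped, and the difference was 0.12 ± 0.34. The array carries 9 Gapdh probes, and they fell into 2 sets. The 3 brightest gave 0.08 to 0.12, with -0.16 to -0.08 in experiment 1, and the other 6 gave 0.38 to 0.47, with Ackr4ko higher in both experiments. Their differences in experiment 2 were close to each other, so the sets differ by experiment 1. The 3 brightest share runs of 30 to 48 bases and hold AATAAA. Among the other 6, the probe at chr7:30640463-30640523 also holds AATAAA, and its difference was 0.45. The array places 2 of the 9 probes on chromosome 7 and the others on chromosome 6, and it was not tested whether any of them reads copies of Gapdh. Stretches of the brightest probe and of 2 others are shown, the hexamer in capitals, to set a probe with the hexamer beside probes that lie upstream of it in the transcript.
Gapdh at chr6:125111869-125111928, difference 0.12: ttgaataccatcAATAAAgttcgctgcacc
Gapdh at chr6:125112496-125112555, difference 0.47: ttccgtgttcctacccccaaagtgtccgtc
Gapdh at chr6:125113312-125113371, difference 0.44: ttgacctcaactacatggtctacatgttcc

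Lactate dehydrogenase A (Ldha), which regenerates NAD+ by reducing pyruvate to lactate, showed the same split. Its brightest probe had 16.83 and 17.44 on the Ackr4ko arrays and 16.89 and 17.08 on the WT arrays, with a difference of 0.15 ± 0.35 and overlapping groups. The 2 upstream probes gave 0.70 and 0.52, with Ackr4ko higher in both experiments. Hk1 had 0.04 by its brightest probe, and 0.86 and 0.38 by the 2 probes that lie 626 and 1487 bases upstream of it by genomic position.
Ldha at chr7:54110937-54110996, difference 0.15: agtgtcatgccaAATAAAaccttgaacagt
Ldha at chr7:54107294-54107353, difference 0.70: cttaacccagaactgggcactgacgcagac
Hk1 at chr10:61731230-61731288, difference 0.04: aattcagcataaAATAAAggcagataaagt
Hk1 at chr10:61731856-61731915, difference 0.86: ggaatctcccatcgctttagtgagccattg

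In Gapdh, Ldha and Hk1 the brightest probe contained AATAAA and gave a difference of 0.15 or less. Of the 31 brightest tested probes, 11 hold AATAAA or ATTAAA, those of Eno2, Aldoc and Pkm among them. Pfkp went the other way, with 1.14 by its brightest probe and 0.36 by a dim probe at the 3′ end that has AATAAA. The brightest probe lies 2594 bases upstream by genomic position, which is not a distance along the transcript. Pkm gave 0.63 and 0.82, and Tpi1 gave 0.88 and 0.78. Using the mean of all tested probes in place of the brightest raised the count of members higher in both experiments to 22. Of all tested genes 32.7% were higher in both in that setting. The cause of these splits was not tested.

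**Figure D4:**
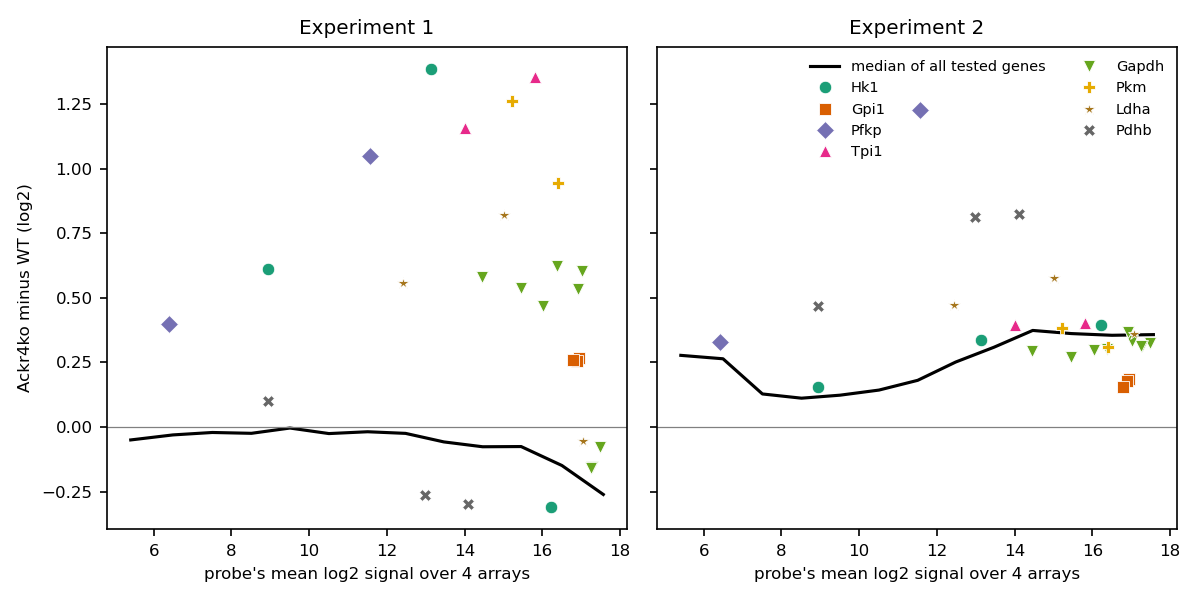
Difference Ackr4ko minus WT (y axis, log2) against the mean log2 signal of the probe over the 4 arrays (x axis), for all tested probes of the 8 members with several of them, in experiment 1 (left) and experiment 2 (right). The black line joins the medians of all tested genes in classes of brightness. In experiment 1 the brightest probes of Hk1, Ldha and Gapdh lie near or below 0 and the dimmer probes of these genes above it, and in experiment 2 most probes lie close to the line.

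Lactate leaves the cell by monocarboxylate transporters, and Slc16a1, which encodes MCT1, had 7.06 and 6.77 on the Ackr4ko arrays and 7.02 and 7.04 on the WT arrays. The groups overlapped and the difference was -0.11 ± 0.33. Ldhb had 3.36 and 5.59 on the Ackr4ko arrays and 3.87 and 5.32 on the WT arrays, all not well above background.

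In the oxidative arm of the pentose phosphate pathway, only the first enzyme had separate groups. Glucose-6-phosphate dehydrogenase (G6pdx), which makes NADPH and sets the flow into the pathway, had 12.18 and 11.84 on the Ackr4ko arrays and 11.62 and 11.55 on the WT arrays, a difference of 0.43 ± 0.33. 6-phosphogluconolactonase (Pgls) had 12.38 and 12.82 on the Ackr4ko arrays and 12.89 and 12.74 on the WT arrays (-0.21 ± 0.34). 6-phosphogluconate dehydrogenase (Pgd), the second source of NADPH, had 11.93 and 11.28 on the Ackr4ko arrays and 11.98 and 11.66 on the WT arrays, lower in both experiments by little (-0.21 ± 0.36). The groups of Pgls and Pgd overlapped.

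The 4 genes of the non-oxidative arm gave differences of -0.05 to 0.39, with a median of 0.12. Transketolase (Tkt), which moves 2-carbon units between sugars, had 15.49 and 15.62 on the Ackr4ko arrays, against 15.33 and 15.30 on the WT arrays, a small separation of 0.24 ± 0.32. Transaldolase (Taldo1) had 14.96 and 15.53 on the Ackr4ko arrays and 15.26 and 15.32 on the WT arrays (-0.05 ± 0.35). Ribose-5-phosphate isomerase (Rpia), which makes the sugar of nucleotides, had 11.17 and 11.62 on the Ackr4ko arrays and 11.47 and 11.32 on the WT arrays (-0.003 ± 0.34). Both changed sign between experiments. Ribulose-5-phosphate epimerase (Rpe) had 10.26 and 11.06 on the Ackr4ko arrays and 10.30 and 10.24 on the WT arrays, and its 0.39 ± 0.37 came from the Ackr4ko array of experiment 2 alone, without which it was -0.01.

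Pyruvate dehydrogenase genes overlapped between the groups in all 3 cases. Pdha1, the catalytic E1 alpha subunit, had 11.65 and 12.01 on the Ackr4ko arrays and 11.43 and 11.70 on the WT arrays (0.26 ± 0.34). Pdhb, the E1 beta subunit, had 13.68 and 14.78 on the Ackr4ko arrays and 13.98 and 13.96 on the WT arrays (0.26 ± 0.41). Pdhb stood high on the Ackr4ko array of experiment 2, and its 3 probes gave mean differences of 0.26 to 0.28. From the brightest to the dimmest they gave -0.30, -0.26 and 0.10 in experiment 1. In experiment 2 they gave 0.83, 0.81 and 0.47. Dlat, the E2 subunit, had 8.74 and 8.38 on the Ackr4ko arrays and 8.70 and 8.27 on the WT arrays (0.07 ± 0.35).

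Other genes that touch these pathways were listed apart from the members, 67 genes of which 52 were tested. Of these, 0 passed limma without a block, and the median difference was 0.31, against 0.08 over all tested genes. In both experiments 24 were higher, as were 33.0% of all tested genes, and 6 were lower, as were 20.9%. The sperm-type dehydrogenase Gapdhs had 6.75 and 8.49 on the Ackr4ko arrays and 5.08 and 6.58 on the WT arrays, of which 1 was well above background. Its difference was 1.79 ± 0.64, with 1.67 in experiment 1 and 1.92 in experiment 2.

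Among transporters, Slc16a3, which encodes the lactate exporter MCT4, had 14.04 and 13.12 on the Ackr4ko arrays, against 10.86 and 13.06 on the WT arrays. The WT array of experiment 1 was far below the other 3, so the difference was 3.18 in experiment 1 and 0.07 in experiment 2. Slc2a1, which encodes the glucose transporter GLUT1, gave 1.10 and -0.20. The pyruvate dehydrogenase kinase Pdk1 gave 1.80 and -0.32, and Pdhx, which binds E3 into the complex, gave 0.56 and 0.55. Basigin (Bsg), the chaperone of the lactate transporters, gave 0.75 and 0.82. Liver glycogen phosphorylase (Pygl), which releases glucose 1-phosphate from glycogen, gave 3.06 and 1.02. Ribokinase (Rbks) had the lowest value of the list, -1.03 ± 0.41. Prps1, which makes phosphoribosyl pyrophosphate, gave -0.19 in experiment 1 and 1.16 in experiment 2, and glycogen synthase Gys1 gave 1.44 and 0.22. The bifunctional enzymes of fructose 2,6-bisphosphate, Pfkfb1 (0.41 ± 0.33) and Pfkfb4 (-0.29 ± 0.33), went in opposite directions. Of the regulators, Txnip, which restrains glucose uptake, gave 1.49 in experiment 1 and -0.23 in experiment 2 (0.63 ± 0.44). The glucose sensor Mlxip gave 0.69 and 0.15 (0.42 ± 0.36). The transcription factors Hif1a (-0.14 ± 0.33) and Myc (0.40 ± 0.52) had differences smaller than their SE. Myc changed sign between experiments, with -0.38 in experiment 1 and 1.18 in experiment 2. With the experiment as a block, limma called 5 genes of the list, all higher in Ackr4ko, against 2.04% of all tested genes called higher. Slc16a3, Gapdhs and Pygl were among them. The count also holds Pck1, of glucose synthesis, which passed the filter on dim probes through the Ackr4ko arrays alone and so had to differ.

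The promoters of the members were searched for letters that HIF and Myc are known to bind, ACGTG and GCGTG for the HIF core and CACGTG, which contains ACGTG, for the Myc E-box, on both strands. RefSeq promoter windows of 300 bases (GRCm38.p6) matched 32 of the 33 genes by symbol, 44 windows in all since 8 genes have several starts. ACGTG was in 18 of the 44 windows (40.9%), against 19.6% of all 32851 windows. GCGTG was in 25 (56.8%), against 32.4%, and CACGTG in 3 (6.82%), against 7.15%. The members' windows were richer in G and C, with a median of 60.5% against 52.7%, and both motifs hold CG. No factor binding was measured here.

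The windows of the 3 genes called with the experiment as a block are shown with the HIF core letters and their reverse complements in capitals. The first motif occurs 2 times in the window of Hk2, the second occurs 4 times in that of Pfkp, and the window of Eno2, with the largest difference, holds neither. Windows of members with small differences hold both, as do those of Ldha at its first start (5 and 2, difference 0.15) and Slc16a1 (3 and 2, difference -0.11). Whether motif counts go with the differences was not tested.
Hk2, chr6:82774405-82774704, minus strand: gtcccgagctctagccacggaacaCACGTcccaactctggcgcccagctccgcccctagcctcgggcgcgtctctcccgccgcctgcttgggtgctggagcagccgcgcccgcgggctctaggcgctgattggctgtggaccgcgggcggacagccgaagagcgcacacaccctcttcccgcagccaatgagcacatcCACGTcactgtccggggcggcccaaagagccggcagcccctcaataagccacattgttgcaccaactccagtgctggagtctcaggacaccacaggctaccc
Pfkp, chr13:6648722-6649021, minus strand: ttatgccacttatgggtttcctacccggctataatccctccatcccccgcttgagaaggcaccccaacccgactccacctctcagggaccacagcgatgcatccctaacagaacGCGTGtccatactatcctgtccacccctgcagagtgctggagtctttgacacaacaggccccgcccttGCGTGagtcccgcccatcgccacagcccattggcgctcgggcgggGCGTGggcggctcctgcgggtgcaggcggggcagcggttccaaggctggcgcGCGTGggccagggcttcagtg
Eno2, chr6:124769624-124769923, minus strand: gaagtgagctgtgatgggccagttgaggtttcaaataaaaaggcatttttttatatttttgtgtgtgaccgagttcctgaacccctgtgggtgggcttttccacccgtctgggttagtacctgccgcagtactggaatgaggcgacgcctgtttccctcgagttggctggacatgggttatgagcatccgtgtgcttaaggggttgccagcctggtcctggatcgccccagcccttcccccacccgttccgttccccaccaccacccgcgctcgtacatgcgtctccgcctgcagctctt

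Markers of other spleen cells were mixed. Of the T cell list, 4 of 7 genes on the array were well above background on all 4 arrays, with a summed signal of 11.65 and 12.16 on the Ackr4ko arrays and 11.74 and 12.09 on the WT arrays. Macrophage and monocyte genes gave 15.46 and 15.14 on the Ackr4ko arrays and 15.71 and 15.81 on the WT arrays. Of these, 5 of 7 were above background, and Cd14 and Lyz2 were not above it on any array. Mpeg1, the largest part of that sum, differed by -0.78, Adgre1 by -0.34 and Csf1r by -0.29. Cd68 was higher in Ackr4ko by 0.51 and Itgam by 0.12. Dendritic cell genes gave 15.94 and 16.20 on the Ackr4ko arrays and 15.98 and 15.94 on the WT arrays, of which Itgax and Xcr1 were not above background on any array, while Flt3 was higher in Ackr4ko by 1.07 and Zbtb46 by 1.00, and Batf3 was above background on 2 arrays, both Ackr4ko. Siglech, which makes up most of that sum, differed by -0.01. Stromal and endothelial genes gave 9.39 and 8.37 on the Ackr4ko arrays and 9.86 and 9.58 on the WT arrays, with 1 of 6 (Pecam1) above background on all arrays. Plasma cell genes gave 14.50 and 14.68 on the Ackr4ko arrays and 14.52 and 14.40 on the WT arrays. Of 6 neutrophil genes 4 were not above background on any array, of 5 NK cell genes 4 were not, and of 7 erythroid and platelet genes 0 were above it on all arrays. The part of other cells in the members' differences was not tested.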

How the data were processed

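Total RNA (50 ng) was labelled with Cy3 and hybridised to Agilent 1-colour arrays, per the labels' protocols. Per the submitters' processing notes the scans were read by Agilent Feature Extraction 10.7.3.1. Its deposited files give a processed intensity for each spot, with flags for outliers and for signal well above background. All 4 arrays were on 1 slide. The deposited value table holds intensity values that the authors had normalized, and how it was made is not given in the sources used here.

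Control and outlier spots were left out, the 4 spots of a probe were averaged as log2 of the processed signal, and each array was scaled to a common 75th percentile. The filter on dim probes asked for 50% of the spots above background on 2 or more arrays, and 1 probe per gene was tested. Probes were named through RefSeq accessions, then symbols, from a GRCm38.p6 gene table, and positions of probes are mm9 as the array files give them. The comparison used limma 3.58.1 under R 4.3.3 (two-sided, Benjamini-Hochberg adjusted p over all tested genes, threshold 0.05), without a block. The experiment number pairs the arrays, since the series description states 2 independent experiments, and arrays of 1 experiment deviated together (correlation 0.42 across genes). The fits were tested on simulated data. Alternatives were other normalizations, background correction, filters, probe rules, the block, the authors' value table and leaving out each array. Nothing says that the cells of an array came from 1 mouse, and p-values measure only the spread between these arrays.

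The members and the lists were chosen with earlier results of these data known. All 33 members are named, and of each list of other pathway genes the 2 with the smallest p. From those lists, 1 result is left out of the text. Beyond that rule, Slc2a1, Pck1, Hif1a and Myc were chosen after their values were seen.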

Additional observations from a re-analysis of the deposited data

How the results depend on the processing

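The median difference of the members was positive in every alternative under the scanner files' labels, from 0.26 with no filter on dim probes to 0.46 without the Ackr4ko array of experiment 1 (0.28 to 0.46 on leaving out an array), and 0.33 relative to genes of like brightness, an alternative added after the data were seen. Read under its own labels, the authors' value table gave -0.30, with 4 members higher and 14 lower in both experiments. Of all tested genes in that setting, 29.6% were higher and 28.7% lower in both. The count of called members was 0 in all alternatives except the replicate block (3) and leaving out an array (0 to 1), and of other pathway genes 0 except with the replicate block (5) and on leaving out an array (0 to 4). Members lower in both experiments numbered 2, or 4 with quantile normalization (28.0% of all tested genes in that setting). They numbered 4 in the value table with matched columns (29.6%). Members with both Ackr4ko arrays below both WT arrays numbered 1, or 3 with quantile normalization (15.2% of all tested genes in that setting). They numbered 2 with normexp (10.71%), 3 in the matched value table (16.1%) and 1 to 8 on leaving out an array (15.8% to 32.2%). Those above numbered 16, or 12 with quantile normalization (16.1%) and 12 in the matched value table (14.8%). In the others with all arrays they numbered 15 to 17 (10.69% with no filter to 19.01% with the mean of all tested probes). On leaving out an array they numbered 18 to 25 (30.4% to 50.5%). The median of the other pathway genes was 0.31, or 0.23 with quantile normalization, 0.23 with normexp, 0.18 with no filter, 0.13 in the matched value table and 0.21 to 0.35 on leaving out an array. Without the Ackr4ko array of experiment 2 the difference of Rpe was -0.012, in a range to 0.79 on leaving out an array, and the cause was not tested. The number of genes called over the array was 2, and it was 20 with normexp, 532 with the replicate block, 1 with quantile normalization, 0 with the filter on all 4 arrays and with none, and 1 to 122 on leaving out an array. Where an array is left out, the lone array of its group is assumed to vary like the other group. Signal over background limits Hk3, Ldhb and the WT signal of Eno2.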
